A study of Mus musculus with 16 samples.

Results

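Killer lectin-like receptors were described as a group of 10 genes, Klra1, Klra4, Klra5, Klra7, Klra8, Klra9, Klrc1, Klrc2, Klre1 and Klrb1c, out of 32285 genes counted. The members were given as a list of gene names, which leaves out 17 other killer lectin-like receptor genes described further down. They were read in single γδ T cells that had been sorted from the liver of mice and from its draining lymph nodes (LN), and in NK-like and T-like cells of LN libraries that were not sorted for T cells. Single-cell RNA was counted as UMIs, molecular barcodes that mark single captured transcripts. The questions were which receptors mark γδ T cells that express granzymes against those that express Ifng without granzymes, and how many receptors 1 cell carries.

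Male C57BL/6J mice were used, with liver cells from mice aged 6 to 12 weeks. Chow held DDC (diethoxycarbonyl-dihydrocollidine) at 0.1%, a model of cholestasis in which bile ducts become obstructed and inflamed. D0, D5, D9 and D19 give the day of diet, D0 being without DDC, and STOP gives 18 days of DDC followed by 7 days of recovery. D5-DT gives 5 days of DDC in Mgl2-DTR mice, in which cells that express Mgl2 (CD301b) carry the diphtheria toxin receptor, after toxin on day -1 and day 2. γδ T cells were sorted as alive CD45+ CD3e+ TCRβ- TCRγδ+ cells. Antibody hashtags told the conditions of a pool apart. Liver D0, D5 and D9 formed 1 pool, liver D19 and STOP another, LN D0 and D5 another, and LN D19 and STOP another. The fifth pool held D5-DT cells of both organs, so it is the only one with both tissues. A CITE-seq library, which adds surface antibody tags, was made from LN cells at D0, D5 and D19, mixed from CD45+ Itgax-, CD45+ Itgax+, Pdpn+ and CD45- Pdpn- sorts. The title of the CITE-seq library called D5 here and its description disagree between 5 and 6 days. There was 1 arm or library for each condition of a tissue and the number of mice behind it was not stated, so conditions were not tested against each other.

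The members lie in the NK gene complex and encode C-type lectin-like receptors of the cell surface. Klra genes encode Ly49 receptors, which bind MHC class I or related molecules. Most Ly49 receptors inhibit through phosphatases, whereas those of Klra4 (Ly49D) and Klra8 (Ly49H) activate through the adaptor DAP12, encoded by Tyrobp. Klrc1 (NKG2A, inhibitory) and Klrc2 (NKG2C, activating) pair with CD94, encoded by Klrd1, and bind the non-classical molecule Qa-1, encoded by H2-T23. Klre1 pairs with Klri1 or Klri2, and Klrb1c encodes the antigen that defines NK cells in this strain. NK cells switch single Ly49 genes on or off independently, so that each cell carries its own set.

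In the GRCm38.p6 annotation the 10 genes lay on chromosome 6 between positions 128778485 and 130386874, a span of 1608 kb. Klrb1c was at one end (128778485 to 128788641), followed by Klre1 (129559365 to 129585828), Klrc2 (129649602 to 129660737) and Klrc1 (129666015 to 129682852). The Ly49 genes followed in the order Klra5 (129898988 to 129913237), Klra4 (130043730 to 130067301), Klra8 (130115226 to 130129898), Klra9 (130178626 to 130194374), Klra7 (130218605 to 130233322) and Klra1 (130363918 to 130386874). All but Klre1 are on the minus strand. Windows of 250 bases before and 50 after the annotated start (RefSeq) were aligned between the 6 Ly49 members. Those of Klra4 and Klra8 were the closest of these pairs, with 86.0% of aligned positions identical, followed by Klra5 and Klra8 (71.0%), Klra4 and Klra5 (68.5%) and Klra5 and Klra9 (62.1%). The other pairs were at 47.1 to 54.2%. The 250 bases before the start are shown for Klra4 and Klra8, which were counted together in NK-like cells, and for Klra5, which was counted in liver γδ T cells and nearly absent from NK-like cells. The starts used for Klra4 and Klra5 lie inside the gene spans given above, so the last bases shown for these genes belong to those spans. They run 5′ to 3′ on the minus strand, at chr6:130067272-130067521 for Klra4, chr6:130129899-130130148 for Klra8 and chr6:129913225-129913474 for Klra5, and capitals mark bases that differ from Klra4 in the alignment or have no partner there (37 in Klra8, 58 in Klra5).
Klra4: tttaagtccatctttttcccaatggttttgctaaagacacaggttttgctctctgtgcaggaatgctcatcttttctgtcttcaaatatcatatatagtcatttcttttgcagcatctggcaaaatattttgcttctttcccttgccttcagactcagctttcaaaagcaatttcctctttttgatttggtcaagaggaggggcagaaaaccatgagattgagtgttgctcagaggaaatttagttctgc
Klra8: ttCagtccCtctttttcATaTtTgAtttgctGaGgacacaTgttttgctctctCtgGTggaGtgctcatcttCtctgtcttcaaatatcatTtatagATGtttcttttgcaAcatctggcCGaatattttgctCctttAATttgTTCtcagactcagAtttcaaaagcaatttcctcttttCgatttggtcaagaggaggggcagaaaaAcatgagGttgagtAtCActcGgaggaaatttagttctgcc
Klra5: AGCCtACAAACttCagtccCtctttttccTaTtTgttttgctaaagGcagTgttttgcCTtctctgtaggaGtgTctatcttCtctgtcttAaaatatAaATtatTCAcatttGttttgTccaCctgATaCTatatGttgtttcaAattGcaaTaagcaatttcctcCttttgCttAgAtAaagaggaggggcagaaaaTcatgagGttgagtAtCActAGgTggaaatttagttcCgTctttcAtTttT
The core motif of Runx factors (TGTGGT, either strand) was in the windows of 5 of the 10 members, Klra1, Klrc1, Klrc2, Klre1 and Klrb1c, against 16.8% of all 32851 windows listed. The core motif of TCF and LEF factors (CTTTGA, either strand) was in 1 of 10, Klra7, against 16% of windows. Genes as alike as these can share reads, and no value below separates reads of one Ly49 gene from those of a close copy.

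The γδ T cell pools held 13074668 to 71447265 RNA UMIs and the CITE-seq libraries 32013882 to 47653941. Pairs of libraries shared 0 to 23 cell barcodes. A granzyme-positive cell was a γδ T cell with 2 or more UMIs over Gzma and Gzmb, and an Ifng-type cell had 0 granzyme UMIs and 1 or more Ifng UMI. Neither class held cells of the γδ T17 gate. Cells with exactly 1 granzyme UMI entered neither class. γδ T17 cells, gated on Il23r, Il17a and other genes of that program, served as the class that should lack most of these receptors. In liver the granzyme-positive class had 201 cells at D0, 1256 at D5, 151 at D9, 531 at D19, 73 in STOP and 539 in D5-DT, with medians of 6 to 24 granzyme UMIs per cell. The Ifng-type class of liver had 91, 147, 42, 93, 25 and 49 cells in the same order. In LN the granzyme-positive class had 23 cells at D0, 145 at D5, 6 at D19, 13 in STOP and 182 in D5-DT, and the Ifng-type class had 98, 913, 20, 66 and 39. Median granzyme UMIs in LN were 6 at D0, 3 at D5 and 2 in both STOP and D5-DT. Free RNA (barcodes of 10 to 100 UMIs) held Gzma at 1669 counts scaled to 1000000 (CPM) in the liver pool of D0, D5 and D9, 595 CPM in the liver D19 and STOP pool, 427 CPM in the LN D0 and D5 pool and 82.1 CPM in the LN D19 and STOP pool. The D5-DT pool, which mixed both tissues, held 818 CPM from 25 UMIs. Receptors were in free RNA too, with Klre1 at 351 CPM, Klrb1c at 212 CPM and Klra5 at 162 CPM in the first of these pools. Free Ifng was at 137 CPM in that pool and 31.9 CPM in the liver D19 and STOP pool. It was at 64.0 CPM in the LN D0 and D5 pool and 26.4 CPM in the LN D19 and STOP pool. The part of free Ifng RNA in cells counted with an Ifng UMI was not tested. Median depth was 3836 to 6230 UMIs in liver granzyme-positive cells, 3408 to 5886 in liver Ifng-type cells and 3304 to 5129 in NK-like cells. NK-like cells, named by clustering without any Klr gene, numbered 469 at D0, 126 at D5 and 209 at D19, with 4 to 10 CPM of Cd3e against 650 to 999 CPM in liver granzyme-positive γδ T cells.

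Liver granzyme-positive γδ T cells had a summed level of the members between those of other γδ T cells and NK-like cells, with a different set of Ly49 genes. Summed over the 10 members, they held 1631 to 2660 CPM in the 6 liver arms (CPM here are the UMIs of a gene scaled to the RNA UMIs of the class in that arm). Liver Ifng-type cells held 693 to 961 CPM and γδ T17 cells of liver 43.7 to 226 CPM. LN granzyme-positive cells held 155 to 303 CPM in the 4 arms with at least 10 such cells, below the 466 to 1063 CPM of the Ifng-type cells of the same arms. NK-like cells held 4535 CPM at D0, 4710 at D5 and 2949 at D19. They came from LN CITE-seq libraries only. Cell type, tissue and library thus cannot be told apart wherever liver γδ T cells are set beside NK-like cells.

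**Figure D1:**
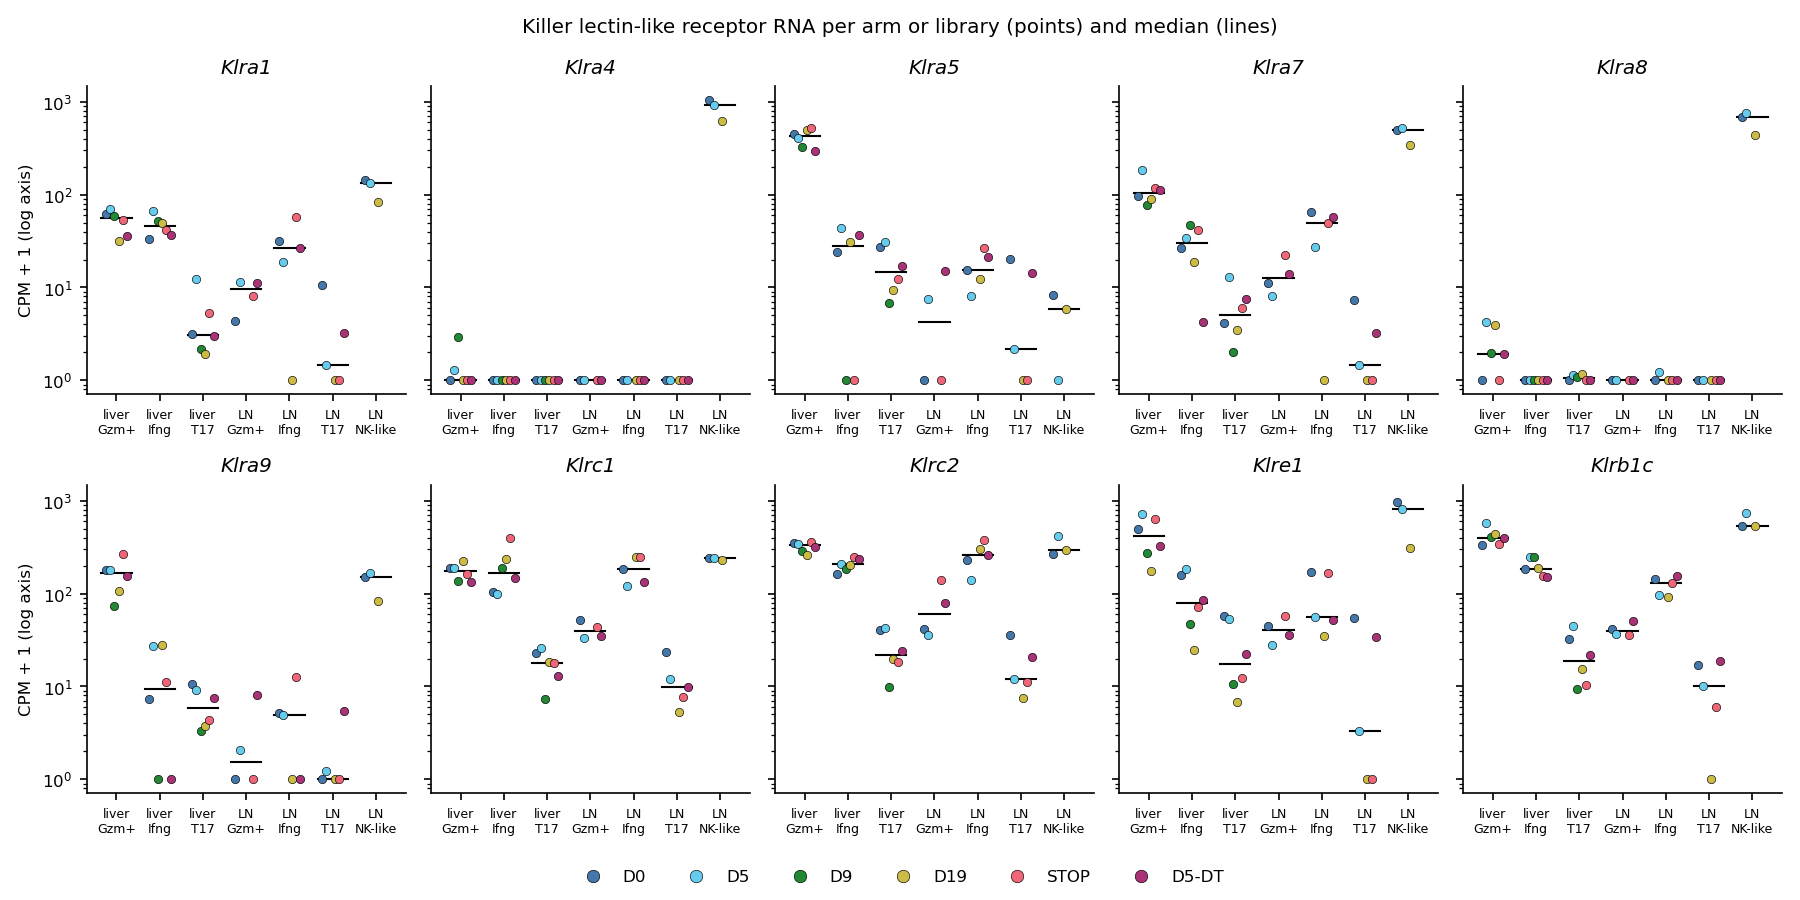
Level of each member (CPM plus 1, log axis) in 7 classes of cells, with 1 point per hashtag arm or CITE-seq library that had at least 10 cells, coloured by condition, and a line at the median. Klra5 is high in liver granzyme-positive cells alone, whereas Klra4 and Klra8 are high in NK-like cells alone.

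Klra5 (Ly49E, an inhibitory receptor known from fetal NK cells and tissue-resident lymphocytes) was counted at 292 CPM in the lowest, 427 in the median and 515 in the highest liver arm of granzyme-positive cells. Liver Ifng-type cells held 0 to 42.6 CPM, with no UMI at D9 and in STOP, and the groups did not overlap. NK-like cells, which were of LN, held 7.37 CPM at D0, 0 at D5 and 4.90 at D19. LN granzyme-positive γδ T cells were low as well, at 0 to 14.1 CPM. Cells were thinned to 2000 UMIs each, which left out shallower cells (140 of 2751 liver granzyme-positive, 22 of 447 liver Ifng-type, 742 of 10037 liver γδ T17 and 31 of 804 NK-like cells). After thinning, a Klra5 UMI was found in 20.7 to 45.2% of liver granzyme-positive cells and in 0.677 to 3.17% of liver γδ T17 cells, whose median depth was 2691.5 to 5260.5 UMIs before thinning. The liver granzyme-positive cells therefore carried this gene at a higher share than the class that should lack it, and LN NK-like cells (1.52, 0 and 0.526% of cells) did not.

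Klra9 (Ly49I, inhibitory) was at 73.4 CPM in the lowest, 167 in the median and 265 in the highest liver arm of granzyme-positive cells, against 0 to 27.0 CPM in Ifng-type cells of liver. NK-like cells held 151, 165 and 82.1 CPM at D0, D5 and D19, within the range of the liver γδ T cells. Klra7 (Ly49G, inhibitory) was at 77.2 CPM in the lowest, 103 in the median and 185 in the highest liver arm, against 3.27 to 46.7 CPM in Ifng-type cells. In NK-like cells it was at 495, 525 and 346 CPM, above every γδ T cell arm. Klra1 (Ly49A, inhibitory) was the Ly49 member whose classes overlapped among the 4 that could be tested: granzyme-positive cells held 30.6 to 69.4 CPM and Ifng-type cells 31.9 to 65.9 CPM in liver, and NK-like cells 143, 134 and 82.1 CPM.

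The activating pair was nearly absent from γδ T cells. Klra4 had 4 UMIs in all liver and LN granzyme-positive cells, 2 at liver D5 and 2 at liver D9, and 0 in every Ifng-type and γδ T17 arm. Klra8 had 34 UMIs in granzyme-positive cells, of which 23 were at liver D5 (3.29 CPM), and 1 in Ifng-type cells. In NK-like cells Klra4 was at 1046 CPM at D0, 917 at D5 and 618 at D19, and Klra8 at 690, 764 and 444 CPM. After thinning, Klra4 was found in 50.2, 52.8 and 40.0% of NK-like cells and Klra8 in 49.8, 52.0 and 34.2%. Both genes were too low to enter the test between γδ T cell classes.

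The NKG2 genes were less restricted. Klrc1 was at 133 CPM in the lowest, 175 in the median and 226 in the highest liver arm of granzyme-positive cells and at 98.9 to 399 CPM in Ifng-type cells, where the groups overlapped throughout. NK-like cells held it at 239, 240.5 and 228 CPM and LN Ifng-type cells at 119 to 248 CPM. Klrc2 was at 260 CPM in the lowest, 330 in the median and 359 in the highest liver arm of granzyme-positive cells, just above the 164 to 245 CPM of Ifng-type cells. Their partner Klrd1, no member of the group, was at 577 to 923 CPM in liver granzyme-positive cells, 348 to 570 CPM in liver Ifng-type cells and 988 to 1330 CPM in NK-like cells. The non-Ly49 receptor Klre1 was at 172 CPM in the lowest, 415 in the median and 718 in the highest liver arm of granzyme-positive cells, against 24.0 to 185 CPM in Ifng-type cells, so the ranges of the classes overlapped. Klrb1c was at 336 to 575 CPM in granzyme-positive and 150 to 246 CPM in Ifng-type cells of liver, without overlap, and at 531 to 730 CPM in NK-like cells.

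Within liver, 6 of the 8 members tested were higher in granzyme-positive than in Ifng-type γδ T cells (edgeR quasi-likelihood test on UMIs summed per class, arm as a block, 6 arms). Of the 7219 genes tested, 13% were called in either direction and 5.67% were called higher. Klra5 and Klra9 are counted among the 6. Both passed the filter on low counts through the granzyme-positive cells, with 0 to 31 UMIs of Klra5 and 0 to 19 of Klra9 per Ifng-type arm. No fold change is therefore given for them. Klra7 had a log2 fold change of 2.09 ± 0.23 (SE) and Klre1 of 1.97 ± 0.12, with adjusted p = 6.45e-08 and 4.20e-18 in edgeR. Smaller differences were called for Klrb1c (0.99 ± 0.10, adjusted p = 4.39e-12) and Klrc2 (0.55 ± 0.10, adjusted p = 2.99e-05). Klra1 (0.02 ± 0.19, adjusted p = 0.986) and Klrc1 (0.02 ± 0.29, adjusted p = 0.989) were not called. All 6 called members were higher in 6 of 6 arms, whereas Klrc1 was above the Ifng-type value in 2 arms and below it in 4. The median log2 fold change over all genes tested was 0.00. The p-values rest on the spread between hashtag arms of different conditions, and no arm was replicated.

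**Figure D2:**
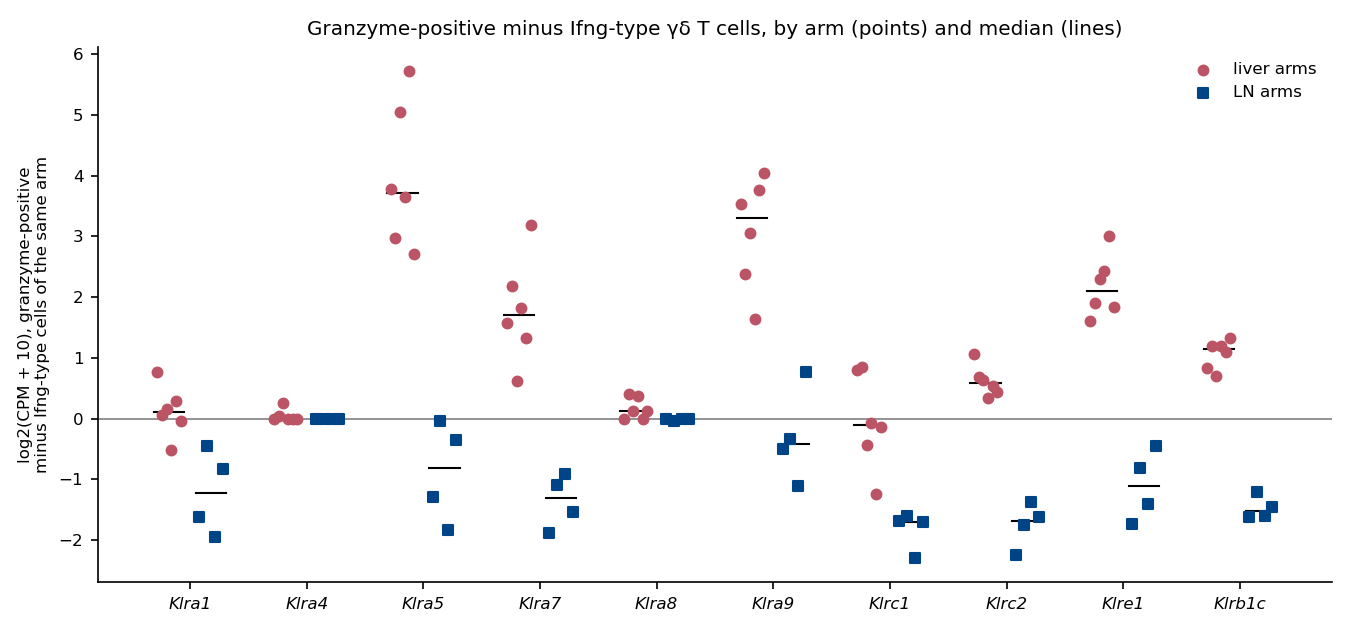
Difference in log2(CPM + 10) between granzyme-positive and Ifng-type γδ T cells for each member, with 1 point per hashtag arm (liver circles, LN squares) and lines at the medians of each tissue. Liver points of Klra5, Klra9, Klra7, Klre1, Klrb1c and Klrc2 all lie above 0, while LN points of most members lie below 0.

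In LN the order was the opposite, and granzyme-positive cells carried less receptor RNA than Ifng-type cells. All 6 members that could be tested in the 4 LN arms were lower (edgeR, arm as a block), where 25.7% of the 6314 genes tested were called in either direction and 11.5% were lower. Log2 fold changes were -2.09 ± 0.22 for Klrc1, -2.08 ± 0.33 for Klra7, -2.0 ± 0.22 for Klrc2, -1.70 ± 0.22 for Klrb1c, -1.55 ± 0.43 for Klra1 and -1.35 ± 0.26 for Klre1. Klra1 was at 3.37 to 10.4 CPM in granzyme-positive and 17.9 to 55.8 CPM in Ifng-type cells. Klra7 was at 7.09 to 21.1 against 26.5 to 63.9 CPM. The fold changes of Klra1 and Klra7 thus rest on few UMIs in granzyme-positive cells and mainly on counts of Ifng-type cells. Adjusted p-values in edgeR were highest for Klra1 (0.0163) and Klre1 (0.00146). Without the arm D0 or the arm STOP, Klra1 was not called (the adjusted p of the leave-one-out fits reached 0.0930). Its log2 fold change in these fits ran from -2.22 to -1.25. Klra5 was too low for the test, at 0 CPM at D0, 6.55 at D5, 0 in STOP and 14.1 in D5-DT in granzyme-positive cells and 14.4, 7.00, 25.6 and 20.6 CPM in Ifng-type cells.

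Other features differed between the LN classes as well. The cell cycle gene Mki67 was at 273 CPM at D0, 255 at D5, 374 in STOP and 52.2 in D5-DT in LN granzyme-positive cells and at 6.19, 5.47, 325 and 0 CPM in Ifng-type cells. Cd8b1, a gene of CD8 T cells, was at 165, 31.1, 0 and 114 CPM in the first class and 20.6, 51.0, 6.97 and 5.14 CPM in the second. Cd8b1 was also the leading gene of a cluster of 4150 cells in the γδ T cell pools that was named naive γδ T. In the D5-DT arm the median granzyme-positive LN cell had 2 granzyme UMIs, the lowest count that the gate admits. The part of these features and of free granzyme RNA in the difference was not tested. With the gate raised to 5 granzyme UMIs, 5 of 5 members tested were lower in LN (3 arms, 79 granzyme-positive cells), where 26.6% of 5246 genes were lower and 55.2% were called in either direction. In liver the same 6 were higher at that gate, where 7.32% of 7196 genes were higher.

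Over all 10 arms that had at least 10 cells of both classes, 2 of the 8 members tested were higher in granzyme-positive cells, where 12.2% of 7204 genes were called in either direction and 5.94% were higher. These were Klra5 and Klra9. No member was called when liver D0, D5, D9, D19 or STOP was left out, and Klra9 alone was called without liver D5-DT. Both passed the filter on low counts through liver granzyme-positive cells, so no fold change is given for them. In liver Ifng-type cells Klra5 was at 0 to 42.6 CPM and Klra9 at 0 to 27.0 CPM. In LN Klra5 was at 0 to 14.1 CPM in granzyme-positive and 7.00 to 25.6 CPM in Ifng-type cells. Klra9 in the same LN classes was at 0 to 7.03 and 0 to 11.6 CPM. Neither Klra5 nor Klra9 was called in DESeq2, where Klrc1 alone was called and was lower. Klra9 was not called with the granzyme gate at 1 UMI (11 arms) or the Ifng gate at 2 UMIs. The difference between tissues was then tested itself, as the class difference in liver minus that in LN. It was called and positive for the 6 members that could be tested in each tissue by itself, where 19.2% of genes were called and 9.19% were positive. The log2 values ran from 1.43 ± 0.41 for Klra1 (adjusted p = 0.0125, edgeR) to 4.11 ± 0.43 for Klra7 (adjusted p = 1.41e-07). With 1 arm left out that of Klra1 ran from 1.19 to 2.19, and Klra1 was not called without LN D0. The values of Klra1 and Klra7 rest on few UMIs in LN granzyme-positive cells. Klra5 and Klra9 were too low to be tested in LN and entered this test through liver granzyme-positive cells, so no value is given for them.

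The 6 members with a UMI in each of the 4 LN arms were called higher in granzyme-positive cells of liver than in those of LN (edgeR, condition as a block, D0, D5, STOP and D5-DT). Here 16% of the 8688 genes tested were called in either direction and 7.52% were higher in liver. The log2 fold change was 3.82 ± 0.28 for Klre1, 3.64 ± 0.34 for Klra7, 3.36 ± 0.26 for Klrb1c, 2.55 ± 0.35 for Klra1, 2.48 ± 0.28 for Klrc2 and 2.13 ± 0.24 for Klrc1. Without D5 that of Klra7 was 2.98. LN counts were lowest for Klra1 (1, 19, 1 and 10 UMIs at D0, D5, STOP and D5-DT) and Klra7 (3, 13, 3 and 13). The fold changes of Klra1 and Klra7 thus rest on few LN UMIs. Klra9 and Klra5 had few UMIs in LN granzyme-positive cells and entered the test through their liver counts, so no fold change is given for them. Klra9 had 0 UMIs at D0, 2 at D5, 0 in STOP and 7 in D5-DT in LN, and Klra5 had 0, 12, 0 and 14. Apart from D5-DT, tissue and pool cannot be told apart in this comparison. In the D5-DT pool, which held both tissues, Klra5 was at 292 CPM in liver and 14.1 CPM in LN, Klre1 at 328 and 35.2, Klrb1c at 394 and 50.2, and Klrc1 at 133 and 34.2. The LN class of this pool lay at the floor of its gate, with a median of 2 granzyme UMIs and free Gzma at 818 CPM. It made up 23.5% of gated LN γδ T cells, against 1.48 to 2.80% in the other LN arms. The part of free granzyme RNA in this comparison was not tested.

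Among liver granzyme-positive cells, Klra5 and Klra9 went with the amount of granzyme RNA while Klrc1 did not. In cells with 5 or more granzyme UMIs Klra5 was at 622 CPM at D0, 457 at D5, 467 at D9, 560 at D19, 633 in STOP and 420 in D5-DT. In cells with 2 to 4 it was at 20, 92.4, 15, 159, 67.1 and 58.8 CPM, so every arm had a lower value there. Klra9 was at 104 to 316 CPM in the first subset and 9.01 to 80.6 CPM in the second. Klre1 (182 to 772 against 93.1 to 436 CPM) and Klrb1c (380 to 621 against 151 to 365 CPM) were likewise at higher values in the first subset in each arm. Klrc1 was at 134 to 215 CPM in cells with 5 or more granzyme UMIs and at 115 to 282 CPM in cells with 2 to 4. These subsets were made from the same cells and were not tested. Free RNA held Gzma at 1669 and Gzmb at 1099 CPM in the liver pool of D0, D5 and D9. In the liver D19 and STOP pool it held 595 and 396 CPM. The part of free granzyme RNA in cells with 2 to 4 granzyme UMIs was not tested.

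Granzyme-positive cells that also had an Ifng UMI carried the receptors too. They were 61.7% of granzyme-positive cells at liver D0 and 21.9 to 36.1% in the other liver arms. Their summed members came to 1724 to 2904 CPM, against 1542 to 2763 CPM in granzyme-positive cells without an Ifng UMI. Klra5 was at 214 to 497 CPM in cells with an Ifng UMI and at 298 to 642 CPM in cells without one. These cells lay far above the 0 to 42.6 CPM of Klra5 in cells with an Ifng UMI and no granzyme UMI.

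Read the other way, most liver γδ T cells with a Klra9 or Klra5 UMI were granzyme-positive. After thinning, granzyme-positive cells were 17.7% of the 14780 liver γδ T cells. They held 85.6% of cells with a Klra9 UMI (480 of 561) and 82.1% of those with Klra5 (931 of 1134). These are shares over all liver arms, and granzyme-positive cells were 4.82 to 34.5% of the γδ T cells of an arm, so the receptors are ordered by the median within arms that had at least 10 cells positive for the receptor. That median was 81.0% for Klra9 (69.2 to 90.7%), 76.7% for Klra5 (57.9 to 88.0%) and 71.6% for Klre1 (51.8 to 77.5%). It was 60.5% for Klrb1c (44.8 to 73.8%), 59.2% for Klra7 (38.5 to 81.2%), 57.1% for Klra1 (5 arms, 28.6 to 64.6%), 54.9% for Klrc2 (37.4 to 68.5%) and 48.1% for Klrc1 (22.4 to 69.8%). The ranges over arms overlapped between all neighbours in this order. In LN the shares stayed near those of all cells for several receptors. Granzyme-positive cells were 1.70% of LN γδ T cells at D5 and held 1.76% of cells with Klrc2, 2.04% of those with Klrc1, 3.66% of those with Klrb1c and 4.83% of those with Klre1. In the LN D5-DT arm they were 23.5% of γδ T cells and held 24.7, 23.4, 23.2 and 30.8% in the same order. The other LN arms had 0 to 3 such cells per receptor.

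Co-detection in single cells was counted after thinning to 2000 UMIs per cell, because deeper cells show more genes. Liver granzyme-positive cells had a UMI of 1.83 members on average in the lowest arm (D9) and of 2.95 in the highest (D5). At least 2 members were seen in 68.3% of cells at D0, 84.4% at D5, 52.0% at D9, 68.2% at D19, 78.3% in STOP and 59.6% in D5-DT, and at least 3 in 32.7 to 65.3%. No cell showed more than 7 members. In liver Ifng-type cells at least 2 members were seen in 24.1 to 36.0% of cells, below every granzyme-positive arm, and in liver γδ T17 cells in 0.580 to 5.01%. LN granzyme-positive cells reached 7.98 to 15.4% in the 4 arms with at least 10 cells and LN Ifng-type cells 18.4 to 41.5% in the 5 arms. NK-like cells carried the most, with at least 2 members in 91.1, 94.3 and 85.3% of cells at D0, D5 and D19 and a mean of 3.86, 4.11 and 3.06. Shares depend on depth, and the part of free receptor RNA and of reads shared between Ly49 genes in co-detection was not tested.

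**Figure D3:**
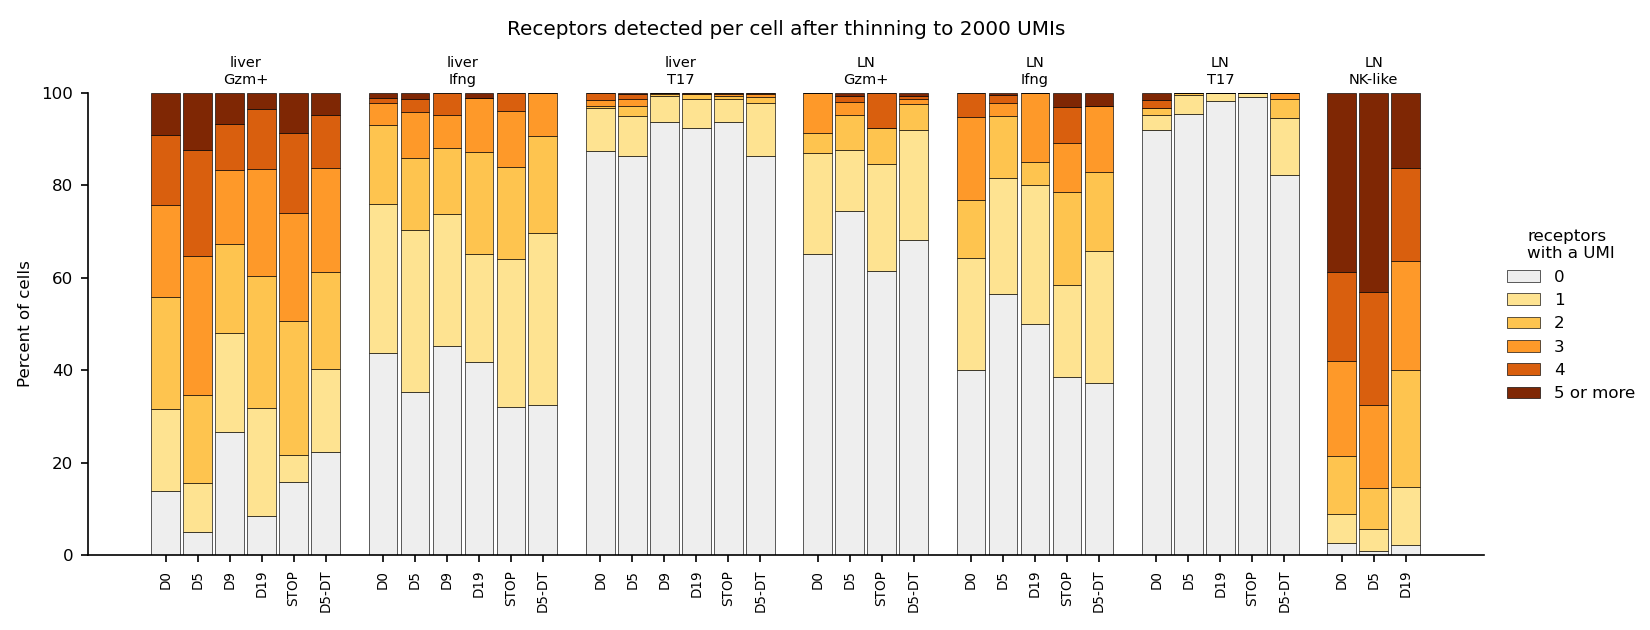
Share of cells (percent) with a UMI of 0, 1, 2, 3, 4 or more members after thinning cells to 2000 UMIs, as stacked bars per arm or library and class. Bars of liver granzyme-positive cells and of LN NK-like cells hold mostly cells with at least 2 members, whereas bars of γδ T17 cells hold mostly cells with none.

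Pairs of receptors were compared with the number of cells expected if both were carried independently within each arm. In 773 NK-like cells Klrc1 was seen with Klra4, Klra8 and Klra7 less often than that number, with 79 cells for Klra4 and Klrc1 against 112 expected (ratio 0.70, counting interval 0.56 to 0.88). The ratio was 0.77 (0.61 to 0.95) for Klra8 and Klrc1 and 0.78 (0.61 to 0.99) for Klra7 and Klrc1, and each was below 1 in 3 of 3 libraries. The intervals covered 1 for Klrc1 with Klra1 (0.83, interval 0.54 to 1.20) and with Klra9 (0.81, interval 0.54 to 1.15), and Klra5 was seen with Klrc1 in 2 cells. Without thinning, the ratio was 0.67 for Klra4, 0.74 for Klra8, 0.80 for Klra7 and 0.75 for Klra9 (interval 0.57 to 0.96, which leaves out 1), each with Klrc1, and 0.90 for Klra1 (0.69 to 1.14). Klra4 and Klra8 were seen together in 252 cells against 175 expected (1.44, interval 1.27 to 1.63), above 1 in 3 of 3 libraries. Klra1 and Klra4 (1.49, interval 1.18 to 1.86) and Klra8 and Klra9 (1.37) were also above 1 in each library.

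In 2611 liver granzyme-positive γδ T cells, Klra7 and Klrc1 were seen together in 62 cells against 93.6 expected (ratio 0.66, interval 0.51 to 0.85), and Klra9 and Klrc1 in 96 against 127 (0.76, interval 0.61 to 0.92), both below 1 in 6 of 6 arms. Without thinning, the ratio of Klra7 and Klrc1 was 0.95 (0.83 to 1.09), above 1 in 4 of 6 arms, and that of Klra9 and Klrc1 was 0.84 (0.75 to 0.95). The low ratio of Klra7 and Klrc1 thus depended on the thinning. Klra5, the leading Ly49 gene of these cells, was seen with Klrc1 in 251 cells against 252 expected (0.99). Klra1 and Klra7 were seen together in 50 cells against 21.0 expected (2.38, interval 1.77 to 3.14), above 1 in 6 of 6 arms, and the ratio was 2.12 without thinning. Reads shared between these genes were not tested. Klra5 was seen with Klra9 at a ratio of 1.17 (5 of 6 arms above 1) and with Klre1 at 1.17 (6 of 6 arms). The expected numbers treat the cells of an arm as alike, although all 3 genes were higher in cells with 5 or more granzyme UMIs. The part of this in the ratios was not tested.

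**Figure D4:**
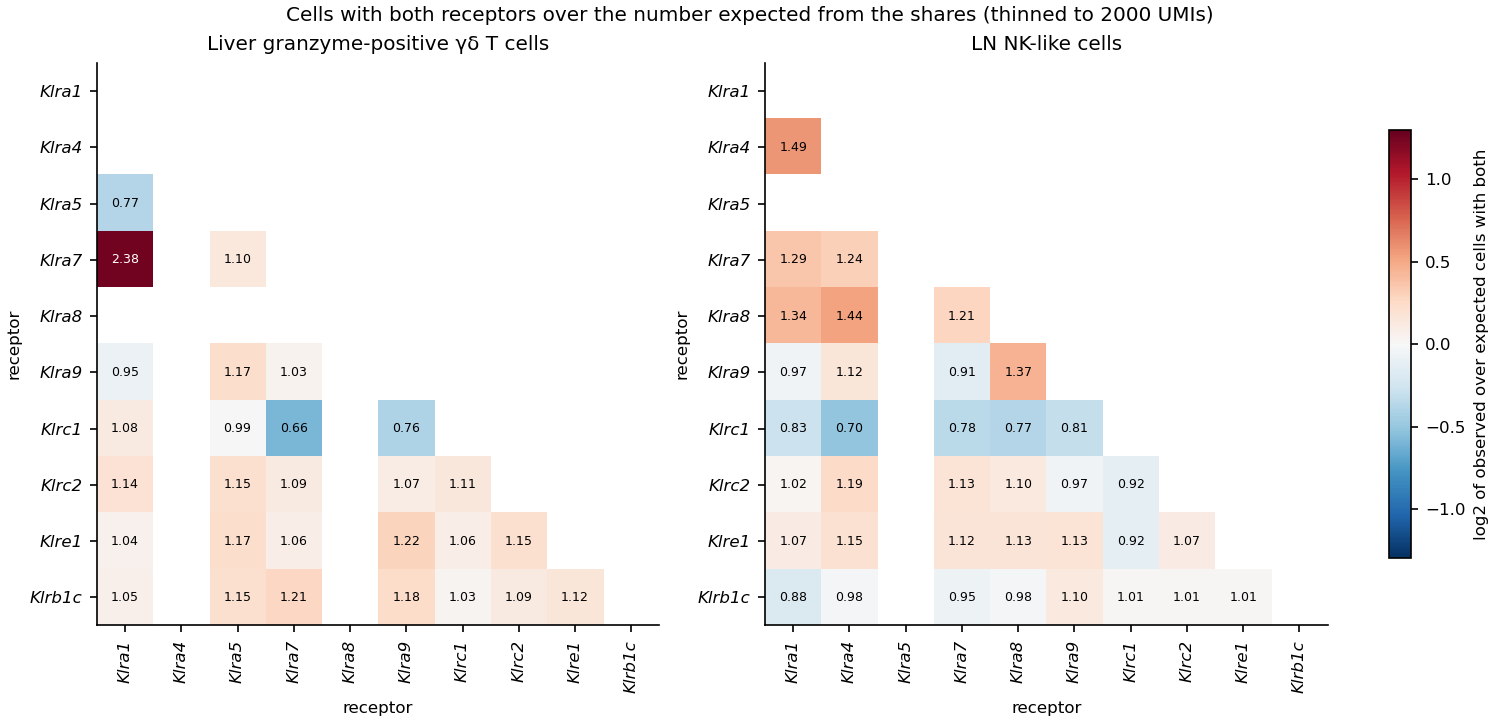
Cells with a UMI of both receptors over the number expected from the shares within each arm or library (numbers in the squares, colour on a log2 scale), for pairs with at least 10 expected cells, in liver granzyme-positive γδ T cells (left) and LN NK-like cells (right). Klrc1 with Ly49 genes lies below 1 in most squares of NK-like cells, and Klra1 with Klra7 reaches 2.38 in liver.

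Klre1 differed widely between conditions, which is described without a test since each condition had 1 arm. In liver granzyme-positive cells it was at 501 CPM at D0 (counting interval 459 to 546), 718 at D5 (699 to 739), 270 at D9 (240 to 304), 172 at D19 (156 to 190), 644 in STOP (555 to 744) and 328 in D5-DT (309 to 348). The low values were thus those of D9 and D19, and STOP, which shared the pool of D19, lay above both. Ifng-type cells of liver followed the same order in part, with 157 CPM at D0, 185 at D5, 46.7 at D9, 24.0 at D19, 71.6 in STOP and 84.9 in D5-DT. γδ T17 cells of liver had 57.1 or 53.0 CPM at D0 and D5 and 5.73 to 21.6 CPM in the other arms. In LN NK-like cells Klre1 was at 965 CPM at D0, 818 at D5 and 308 at D19, and in LN Ifng-type cells at 169, 54.5, 33.8, 165 and 51.4 CPM at D0, D5, D19, STOP and D5-DT. The share of liver granzyme-positive cells with a Klre1 UMI after thinning was 50, 70.6, 38.0, 28.5, 66.7 and 38.7% in the same order as above.

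Klra5 and Klrc1 had other courses. Klra5 in liver granzyme-positive cells was at 449 CPM at D0 (410 to 492), 405 at D5 (390 to 420), 321 at D9 (288 to 358), 492 at D19 (464 to 522), 515 in STOP (436 to 605) and 292 in D5-DT (274 to 311), a narrower range. Klrc1 in liver Ifng-type cells was at 104 CPM at D0 (77.1 to 138), 98.9 at D5 (77.4 to 125), 187 at D9 (136 to 251), 237 at D19 (187 to 295), 399 in STOP (284 to 545) and 147 in D5-DT (107 to 197). In granzyme-positive cells of the same arms it stayed between 133 and 226 CPM. Klra9 in liver granzyme-positive cells was lowest at D9 (73.4 CPM, 57.8 to 91.8) and highest in STOP (265 CPM, 209 to 331). These intervals cover counting error only and leave out the spread between mice and pools.

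**Figure D5:**
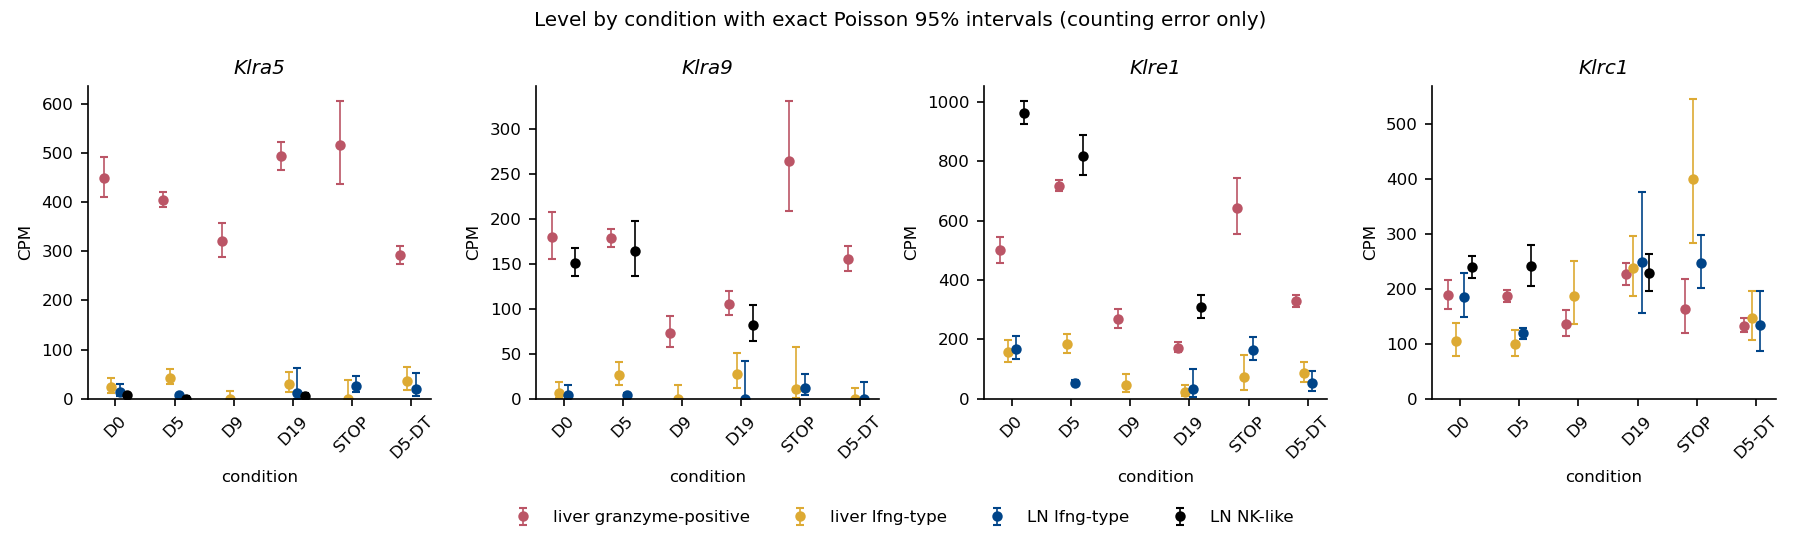
Level (CPM) of Klra5, Klra9, Klre1 and Klrc1 by condition in liver granzyme-positive, liver Ifng-type, LN Ifng-type and LN NK-like cells, with bars for the 95% Poisson interval of the UMI count. Klre1 is lowest at D9 and D19 in liver granzyme-positive cells and at D19 in NK-like cells.

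Other killer lectin-like receptors and the adaptors of the family were read from lists. Of 17 other receptor genes 11 could be tested in liver, and 7 were higher in granzyme-positive than in Ifng-type cells and none lower, where 5.67% of all genes tested were higher. Of the called genes 5 were at 0 in at least 1 Ifng-type arm and passed the filter through granzyme-positive cells, so their levels are given without a fold change. Klrb1a was at 12.4 to 178 CPM in granzyme-positive and 0 to 12.0 CPM in Ifng-type cells, and Klrb1f at 75.4 to 119 against 0 to 52.3 CPM. Klra6 (10.6 to 51.5 against 0 to 20.6 CPM), Klrh1 (9.35 to 50.1 against 0 to 10.2 CPM) and Klri1 (10.6 to 31.3 against 0 to 5.99 CPM) had smaller counts. The other 2 called genes were Klri2 (log2 fold change 0.99 ± 0.33, adjusted p = 0.0326 in edgeR) and Klrd1 (0.62 ± 0.10). Klri2 was at 13.9 to 36.3 CPM in granzyme-positive and 6.53 to 51.1 CPM in Ifng-type cells, so the ranges overlapped. Klrk1, which encodes the activating receptor NKG2D, was not called (0.16 ± 0.09, adjusted p = 0.357 in edgeR). In LN only Klrd1 and Klrk1 could be tested, and both were lower (-1.13 ± 0.19 and -1.3 ± 0.22), where 11.5% of all genes were lower.

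Of 13 adaptor and signalling genes 11 were tested in liver, with 4 higher and 1 lower, where 5.67% of the 7219 genes were higher and 13% were called in either direction. Tyrobp, the adaptor of activating Ly49 receptors, differed by 2.89 ± 0.28 (adjusted p = 0.00134, edgeR) and was at 580 to 1249 CPM in liver granzyme-positive cells, 20.5 to 179 in liver Ifng-type cells and 1642 to 2806 in NK-like cells. Fcer1g, an adaptor of Fc receptors and several NK receptors, differed by 2.36 ± 0.21. Ptpn6, the phosphatase that inhibitory receptors recruit, differed by 0.65 ± 0.16 and Sh2d2a by 0.66 ± 0.11. Sh2d1a, the adaptor SAP, was lower (-1.44 ± 0.16), and Hcst, the adaptor of NKG2D, was not called (-0.13 ± 0.08). Tyrobp was thus present in liver granzyme-positive γδ T cells that had at most 3.29 CPM of Klra8 and 1.93 CPM of Klra4. The same cells held Klrc2, described above as activating, at 260 to 359 CPM and its partner Klrd1 at 577 to 923 CPM. In LN 4 of the 11 were lower and none higher, where 11.5% of the 6314 genes were lower. Of 5 ligand genes tested in each tissue, H2-T23 was higher in liver granzyme-positive cells (0.59 ± 0.13), and 4 of the 5 were lower in LN, beside the same shares over all genes.

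The cytotoxic list and the list of NK and type 1 factors gave the setting. In liver 7 of 10 cytotoxic genes tested were higher in granzyme-positive cells (5.67% of all genes), among them Ccl4 (3.05 ± 0.11) and Prf1 (1.03 ± 0.17), while Fasl was not called (0.03 ± 0.11). Gzmc was at 38.0 to 219 CPM in these cells and 0 to 16.5 CPM in Ifng-type cells, and Ccl3 at 106 to 272 against 0 to 31.6 CPM. Of 12 NK and type 1 genes tested 4 were higher, namely Ncr1 (2.34 ± 0.21), Itga1 (2.04 ± 0.13), Cd7 (1.94 ± 0.12) and Xcl1 (1.21 ± 0.08). Ncr1, which encodes NKp46, was at 73.0 to 157 CPM in these cells against 457 to 727 CPM in NK-like cells, and Eomes at 3.48 to 17.5 CPM against 173 to 263 CPM. In LN 6 of 10 cytotoxic genes and 9 of 12 NK and type 1 genes tested were lower in granzyme-positive cells, where 11.5% of all genes were lower and 25.7% were called, and Zeb2 was higher (2.54 ± 0.50).

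T-like cells of the LN CITE-seq libraries held the members named here at lower levels than liver granzyme-positive γδ T cells. Cytotoxic or memory T-like cells (326, 178 and 158 cells at D0, D5 and D19), with Cd8b1 at 655 to 764 CPM, held Klre1 at 119, 41.2 and 35.3 CPM, Klrc1 at 82.5, 50.8 and 55.1 CPM and Klra7 at 67.9, 37.1 and 39.5 CPM. Klrb1c was at 22.4, 13.8 and 44.7 CPM and Klra5 at 15.7, 0.598 and 1.04 CPM, against 292 to 515 CPM of Klra5 and 336 to 575 CPM of Klrb1c in liver granzyme-positive γδ T cells. In LN granzyme-positive γδ T cells Klre1 was at 26.7 to 56.4 CPM, Klrc1 at 32.2 to 50.6 and Klra7 at 7.09 to 21.1 CPM. Klrb1c was at 35.2 to 50.2 CPM there and Klra5 at 0 to 14.1 CPM. These T-like cells were thus not below LN granzyme-positive γδ T cells in Klrc1 or Klra7. Clusters with T markers that kept no name held 1.87 to 5.85 CPM over all 10 members. Outside the Klr genes, the 5 genes whose level followed the sum of the members most closely over 43 points (1 arm or library and class each) were Xcl1 (Pearson r = 0.93), Fasl (0.92), Slamf7 (0.91), Spry2 (0.91) and Fcer1g (0.90), among 2820 genes. These points share libraries and were not independent.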

How the data were processed

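The deposited files were unfiltered matrices of UMI counts per barcode, which the authors had made with Cell Ranger on mm10 (version not settled by the sources used here) from 3′ libraries. Cells had at least 1000 RNA UMIs, 500 genes and at most 10% mitochondrial UMIs, with Scrublet doublets left out at 0.8% per 1000 cells. An arm was given by a top hashtag of at least 10 UMIs and 3 times the next. γδ T cells had at least 2 Cd3 UMIs, fewer than 2 of B cell and fewer than 3 of myeloid genes. LN cells were clustered in scanpy 1.11.5 without Klr genes. UMIs were summed per arm and class and tested with edgeR 4.0.16 under R 4.3.3 (glmQLFTest, TMM, Benjamini-Hochberg, threshold 0.05) where both classes had 10 cells. DESeq2 1.42.0 was an alternative. The fits of one tissue and of the difference between tissues were added after the pooled result was seen. Intervals are exact 95% Clopper-Pearson or Poisson intervals for counting error. On simulated data, 59.6% of genes changed by 1 on the log2 scale and 99.0% of those changed by 2 were recovered in the class comparison (7204 genes), against 10.1% and 90.5% in the comparison of liver with LN (8688 genes). The simulation gave all genes the same dispersion and each changed gene the same change in all arms. It therefore does not give the recovery of genes whose class difference differs between liver and LN. Named genes were the members, genes of lists and the 5 genes most like the summed members. Members and lists were chosen with earlier results of these data known.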

Additional observations from a re-analysis of the deposited data

Results flagged for a closer look

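The difference between granzyme-positive and Ifng-type γδ T cells differed between liver and LN for the 6 members that could be tested in each tissue by itself, although Klra1 was not called without LN D0. The test of the difference between tissues (class difference in liver minus that in LN, edgeR, 6 liver and 4 LN arms) gave log2 values of 4.11 for Klra7, 3.33 for Klre1, 2.64 for Klrb1c, 2.51 for Klrc2, 2.02 for Klrc1 and 1.43 for Klra1. Those of Klra7 and Klra1 rest on few UMIs in LN granzyme-positive cells. Over all genes 19.2% were called in this test. Without both D5-DT arms these 6 were called, as were 25% of 7037 genes. Klra5 and Klra9, too low to be tested in LN, are left out. Tissue and pool cannot be told apart outside the D5-DT pool.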

How the results depend on the processing

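The number of members called, 2 over all 10 arms in the result given, depended on the settings, some of which also changed the arms with enough cells. It was 1 with the granzyme gate at 1 UMI (11 arms, LN D19 added), 1 with the Ifng gate at 2 UMIs, 6 with classes taken from clusters (the 6 liver arms alone), 5 with no filter on low counts (4 higher and 1 lower), and 1 in DESeq2, where Klrc1 was lower. It was 6 in liver arms alone and 6, all lower, in LN arms alone, and 0 to 2 when 1 arm was left out. The other gates, filters and size factors gave 2 (over 9 arms for Gzma alone and for 5 granzyme UMIs). Signs changed only for members that were not called over all arms. Klrb1c had a log2 fold change of -0.015 with the Ifng gate at 2 UMIs, -8.42e-05 in DESeq2 and -0.013 to 0.35 with 1 arm left out. Klrc2 was at 0.56 with classes from clusters and 0.55 in liver alone, where Klra1 was at 0.016 and Klrc1 at 0.022. In LN alone Klra7, Klre1 and Klrb1c were at -2.08, -1.35 and -1.70. Within liver, Klrc1 was at -0.10 in DESeq2 and -0.20 to 0.17 with 1 arm left out, and Klra1 at -0.046 with the gate at 5 granzyme UMIs and -0.15 to 0.15 with 1 arm left out. The cause was not tested.

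The same 6 members were called in liver without each arm in turn, in DESeq2 and with the gate at 5 granzyme UMIs. Counts with 1 arm left out were 5 to 6 in LN, 6 to 8 for the difference between tissues and 8 to 8 for liver against LN, where Klra5 and Klra9 passed the filter through their liver counts. The median share over liver arms of granzyme-positive cells with at least 2 members (68.2%) was 83.8% without thinning and 44.0% after thinning to 1000 UMIs. That of NK-like cells (91.1%) was 83.5% when they were gated on Ncr1 without Cd3. Over all genes, 2309 of 9269 were called in the 6 liver arms with classes from clusters, against 937 of 7219 in these arms with gated classes and 878 of 7204 over 10 arms. For granzyme-positive cells of liver against LN, 3565 of 8247 genes were called with the gate at 5 UMIs, which also dropped STOP (798 of 8962 without STOP at the gate of 2), and 519 (without D5) to 2242 (without D5-DT) with 1 condition left out, against 1389. In LN alone the count was 336 (without D5) to 2228 against 1622, and for the difference between tissues 587 (without LN D5) against 1384. Low counts limit Klra4, Klra8 and all LN granzyme-positive cells.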

Other observations

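γδ T cells with 0 granzyme and 0 Ifng UMIs that lay outside the γδ T17 gate also carried receptor RNA. They numbered 92 to 869 in the liver arms and 227 to 6276 in the LN arms. Their summed members came to 237 to 513 CPM in liver and 160 to 428 CPM in LN. Klrc2 (71.1 to 117 CPM in liver, 54.2 to 201 in LN) and Klrc1 (40.5 to 141 CPM in liver, 31.1 to 116 in LN) made up much of this sum, while Klra9 was at 0 to 8.09 CPM in liver and 0 to 8.88 in LN. Klrd1, the partner of the NKG2 receptors, was at 208 to 414 CPM in liver and 227 to 307 CPM in LN. Klre1 in these liver cells was at 64.7 CPM at D0, 125 at D5, 33.3 at D9, 8.09 at D19, 130.3 in STOP and 38.0 in D5-DT, so D19 was lowest here as well. None of these values was tested.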
